A study of Mus musculus with 50 samples.

Results

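KO2, an NSD1-/- line of mouse embryonic stem (ES) cells, was compared with wild type ES cells by RNA sequencing. The 4 libraries used, 2 of KO2 and 2 of wild type, are among the 50 samples of the series and were taken by their labels. Of 37310 genes in the count tables, 5034 passed a filter on low counts and were tested, 560 of them on chromosome 11 and 4474 elsewhere. Genes of chromosome 11 are described apart, because their counts were higher in KO2 along that chromosome.

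Both groups are J1 cells of the 129S4/SvJae strain, untreated, and grown in serum with the cytokine LIF on gelatin. KO2 carries the NSD1-/- genotype and wild type cells do not, and no other allele or agent is labelled. How KO2 was made, whether it is 1 clone and whether replicate libraries came from separate cultures is not stated in the labels. The p-values therefore cover only the spread between replicate libraries, possibly technical, and a difference can belong to the line as well as to the genotype.

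NSD1 is a histone methyltransferase that places dimethylation on lysine 36 of histone H3 (H3K36me2), a mark spread over genes and the regions between them. H3K36me2 is known to limit the spread of Polycomb's H3K27me3 and to help recruit the DNA methyltransferase DNMT3A. The title of the series links NSD1 to recruitment of the deacetylase HDAC1 and to enhancer H3K27 acetylation, and the comparison asks which transcripts change in an NSD1-/- line.

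The values are counts of fragments per gene, and they have to be read with the strand in mind. The gene for ribosomal protein L23a, Rpl23a, had 33 and 33 counts in wild type and 45 and 46 in KO2, whereas Tlcd1, its overlapping neighbour of opposite strand, had 13410 and 12650 in wild type and 17681 and 18509 in KO2. Beta-actin (Actb) had 108 to 144 counts per library. Apart from AY036118, a locus that overlaps a copy of the ribosomal RNA precursor and took 32.3% to 36.7% of the counts, 89.8% to 90.6% of the counts lay at the 5431 genes with an annotated exon on the other strand. A count is thus named below by the counted gene and the gene opposite it, and in such pairs the fragments were read as those of the opposite gene. Which strand's transcript was counted cannot be told for genes with none opposite.

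Nsd1 held 21 and 25 counts in wild type and 27 and 21 in KO2. The groups overlapped (log2 fold change 0.05 ± 0.31, SE, edgeR adjusted p = 0.945), and with no gene opposite Nsd1 these few counts do not check the loss of its transcript. Its relative Whsc1l1 (Nsd3) had 10 and 9 counts against 1 and 5 (-1.64 ± 0.67, adjusted p = 0.137). Whsc1 (Nsd2), opposite the elongation factor subunit gene Whsc2, had 34 and 33 against 35 and 45 (0.24 ± 0.24, adjusted p = 0.601). Hdac1 had 32 and 49 against 27 and 46 (-0.16 ± 0.26, adjusted p = 0.783), and Hdac2, at 2 to 7 counts, was not tested.

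The exons behind the 3 locus values that lead the results are shown here, each as the stretch where the counted gene overlaps a coding exon of the gene opposite. All are reference sequence of mm9 (NCBIM37), 5′ to 3′ on the strand of the opposite gene, with the overlap in capitals and 15 flanking bases in lower case on each side. The first is the longer of 2 blocks shared by Gm15622 and Bhmt, chr13:94395337-94395443, minus strand, 107 bases. The second is the single block shared by AW495222 and Dmgdh, chr13:94485413-94485627, plus strand, 215 bases. The last is the longest of 3 blocks shared by Gm17329 and Col1a1, chr11:94811605-94811645, plus strand, 41 bases.
Bhmt opposite Gm15622: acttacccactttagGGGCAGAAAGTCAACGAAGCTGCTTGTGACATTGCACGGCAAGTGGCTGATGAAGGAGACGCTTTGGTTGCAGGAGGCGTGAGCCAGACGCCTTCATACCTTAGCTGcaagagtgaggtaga
Dmgdh opposite AW495222: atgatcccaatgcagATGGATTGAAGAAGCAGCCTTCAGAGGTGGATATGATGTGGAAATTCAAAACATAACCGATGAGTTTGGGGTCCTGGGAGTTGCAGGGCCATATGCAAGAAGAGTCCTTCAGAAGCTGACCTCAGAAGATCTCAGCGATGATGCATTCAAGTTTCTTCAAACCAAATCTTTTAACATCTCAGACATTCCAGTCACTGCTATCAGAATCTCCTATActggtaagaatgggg
Col1a1 opposite Gm17329: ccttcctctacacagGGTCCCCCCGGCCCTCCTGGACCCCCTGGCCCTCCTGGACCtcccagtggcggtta
The counts are summed per gene, so how many fragments of a counted gene fell inside these capitals is not known.

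Across all chromosomes, 452 of 5034 tested genes (8.98%) differed between KO2 and wild type at an adjusted p under 0.05 (edgeR's quasi-likelihood test, Benjamini-Hochberg adjustment). Of these, 252 were higher (5.01%) and 200 lower (3.97%) in KO2. Outside chromosome 11, 327 genes were called (7.31%), of which 129 were higher (2.88% of those tested) and 198 lower (4.43%), 43 and 64 of them by a log2 change of at least 1, and the median log2 fold change was -0.06. On chromosome 11, 123 genes were higher (22%) and 2 lower (0.357%), and the median was 0.40. At an unadjusted p under 0.05 the shares were 19.8% elsewhere and 36.4% on chromosome 11. With scaling factors computed without chromosome 11, the genes called elsewhere were split into 175 higher and 168 lower. Without KO2 replicate 1 the 198 lower genes became 121, and without wild type replicate 1 they became 122. DESeq2 called 170 genes, all of them among the 452, with 42 higher and 51 lower outside chromosome 11. Since the median tested gene had only 23 to 24 counts in a library, small changes could be called in abundant genes and only large ones in the rest.

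**Figure D1:**
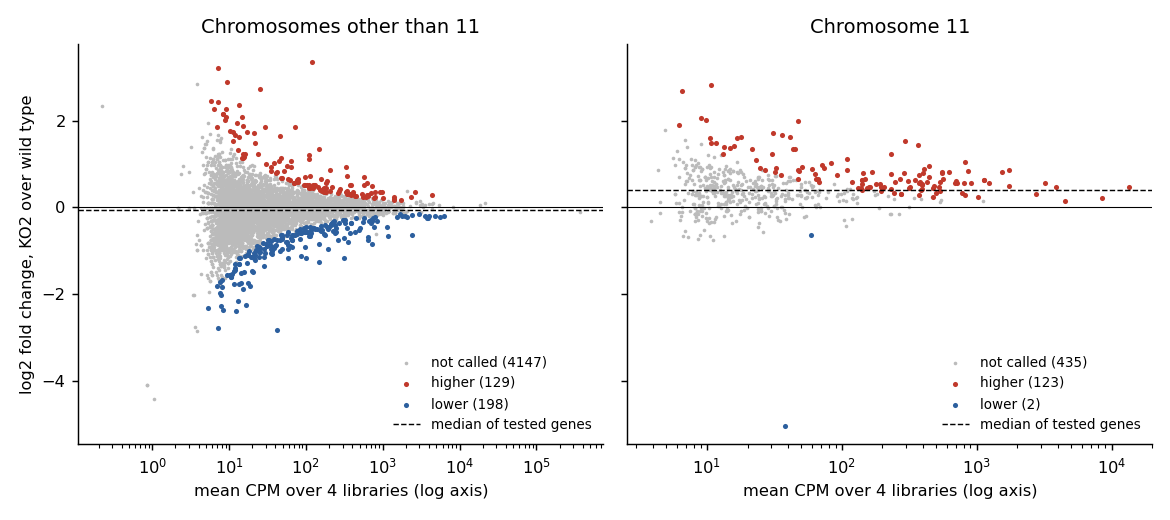
Log2 fold change of KO2 over wild type (vertical axis) against mean CPM over the 4 libraries (counts scaled to the effective library size, log axis) for each tested gene, with chromosomes other than 11 on the left and chromosome 11 on the right. Red points are higher and blue points lower at an adjusted p under 0.05, and the dashed line is the median of the tested genes, -0.06 on the left and 0.40 on the right.

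The rise with the lowest adjusted p outside chromosome 11 lay at the betaine-homocysteine locus. Gm15622 (chr13:94395337-94398588, plus strand) lies inside Bhmt, whose enzyme passes a methyl group from betaine to homocysteine to make methionine. It had 25.4 and 17.0 CPM in wild type and 220 and 212 in KO2, and groups that did not overlap were a condition of its choice. The log2 fold change was 3.35 ± 0.18, or 10.2-fold, with an adjusted p of 4.4e-14. At the neighbouring gene Dmgdh, whose enzyme oxidises the dimethylglycine that Bhmt releases, AW495222 had 149 and 145 CPM in wild type and 259 and 275 in KO2 (0.86 ± 0.12, adjusted p = 5.18e-06). In bulk RNA, a change in the share of cells that express a gene and a change in RNA per cell cannot be told apart, here and below.

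Counts at other genes of amino acid metabolism rose by less. Gm17232, opposite the threonine dehydrogenase gene Tdh, which serves threonine breakdown in mouse ES cells, had 3874 and 4038 CPM in wild type and 4831 and 4854 in KO2 (0.29 ± 0.05, adjusted p = 3.53e-05). Smcr8, a chromosome 11 gene opposite the serine hydroxymethyltransferase gene Shmt1, rose by 0.66 ± 0.12 (adjusted p = 0.000525), close to the shift of that chromosome. By the gene opposite, 4 of the 8 tested entries of a list of 34 genes of one-carbon and amino acid metabolism were higher and 0 lower, where 5.01% of all tested genes were higher, with a median of 0.37 against -0.01 for all tested genes. Taken by the counted gene, edgeR and DESeq2 called 0 of 11 entries, with 2 at an unadjusted p under 0.05. The list was drawn up with the Bhmt result known, so its count is no independent evidence of direction.

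A pair of counted genes lies at each end of Aldh5a1, which encodes succinate semialdehyde dehydrogenase of GABA breakdown. They were named after their values were seen. Opposite the end of the gene, 4932702P03Rik had 57.8 and 79.9 CPM in wild type and 158 and 139 in KO2 (1.10 ± 0.15, adjusted p = 5.83e-06). Opposite its start, 9330162012Rik had 28.0 and 29.8 against 55.3 and 66.0 (1.07 ± 0.22, adjusted p = 0.00121). The rises at both ends were alike in size, and neither pair of groups overlapped. Both KO2 libraries lay above both wild type libraries in 20.2% of tested genes outside chromosome 11. Glud1, the mitochondrial glutamate dehydrogenase with no gene opposite, had 50.8 and 36.6 CPM in wild type and 83.8 and 81.6 in KO2 (0.92 ± 0.19, adjusted p = 0.00124). Its neighbour Sncg, the gamma-synuclein gene, also with no gene opposite, rose by 1.01 ± 0.22 (adjusted p = 0.00293). Both were also named after their values were seen.

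Counts opposite several genes of extracellular matrix were lower in KO2. Gm17329 (chr11:94810494-94811645, minus strand) lies inside Col1a1, the alpha-1 chain of type I collagen. It had 68.2 and 79.9 CPM in wild type and 3.57 and 0.82 in KO2, a log2 fold change of -5.05 ± 0.38 (adjusted p = 6.02e-11), or 33.0-fold. Leaving out single libraries moved this estimate between -4.33 and -6.30. It is the lowest value on a chromosome where the median gene was higher.

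Syn3, a synapsin gene, spans Timp3, the matrix metalloproteinase inhibitor on the other strand, and shares 1733 exon bases with it. Syn3 had 65.6 and 82.5 CPM in wild type and 8.02 and 12.4 in KO2 (-2.84 ± 0.27, adjusted p = 5.34e-09). Gm15270, opposite the connective tissue growth factor gene Ctgf, had 182 and 193 CPM against 111 and 97.3 (-0.85 ± 0.13, adjusted p = 1.59e-05). In these 2 genes both KO2 libraries lay below both wild type libraries, as in 26% of all tested genes. For Syn3 this was a condition of its choice. Opposite the type V collagen gene Col5a1, Gm13372 (-1.61 ± 0.47, adjusted p = 0.026) and 2810430I11Rik (-1.15 ± 0.33, adjusted p = 0.0241) were lower. Gm13372 lost its call without KO2 replicate 1 (adjusted p = 0.133), without KO2 replicate 2 (0.0672) and without wild type replicate 2 (0.29). 2810430I11Rik lost it without KO2 replicate 1 (adjusted p = 0.249), without wild type replicate 1 (0.0802) and without wild type replicate 2 (0.0655).

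Matrix genes did not move as 1 group. Apol7d, opposite the fibronectin gene Fn1, had 1171 and 1192 CPM in wild type and 1168 and 1210 in KO2, and its groups overlapped (0.01 ± 0.06, adjusted p = 0.944). RP23-396G1.3, opposite the transglutaminase gene Tgm2, had 7.0 and 12.8 CPM in wild type and 26.7 and 37.9 in KO2 (1.70 ± 0.36, adjusted p = 0.00194). Rprd1b, opposite the same gene, rose by 2.15 ± 0.57 (adjusted p = 0.0131), a call lost without wild type replicate 1 (adjusted p = 0.109). Gm16033 and Gm16034, opposite the metalloproteinase gene Adam19 on chromosome 11, rose by 1.54 ± 0.10 and 1.02 ± 0.17 (adjusted p = 1.54e-12 and 8.91e-05). By the gene opposite, 4 of 11 tested entries of the matrix and fibroblast list were higher and 5 lower, with a median of 0.01, where 5.01% of all tested genes were higher and 3.97% lower. Outside chromosome 11, 2 of 8 were higher and 4 lower, with a median of -0.42 against -0.06 for all tested genes there. On chromosome 11, 2 of 3 were higher and 1 lower, where 22% of tested genes were higher and 0.357% lower. Col5a1, Tgm2 and Adam19 are each counted more than once. Read by the counted gene, edgeR and DESeq2 called 0 of 6, with 3 at an unadjusted p under 0.05. Ctgf, Col5a1, Fn1 and Adam19 were named after their values were seen.

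Fibroblast markers are given beside these values, because fibroblasts are a common companion of ES cell cultures. By the counted gene, 10 fibroblast markers held 75 and 70 counts in all in wild type and 87 and 79 in KO2. Of the 10, 6 were at 0 in all 4 libraries. Even Actb had only 108 to 144 counts per library at its own symbol, so these zeros do not show that fibroblasts were absent. By the gene opposite, the markers that could be read were Col1a1 and Fn1. Gm17329 at Col1a1 held 78 and 94 counts in wild type and 4 and 1 in KO2. Apol7d at Fn1 held 1338 and 1402 counts in wild type and 1311 and 1468 in KO2. The fall at Col1a1 was not matched at Fn1. Among matrix genes outside this marker set, counts opposite Timp3, Ctgf and Col5a1 were lower and those opposite Tgm2 and Adam19 higher. The part of other cells in the fall at Col1a1 was not tested.

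At imprinted loci, 4 counted genes were lower in KO2, of which Rtl1 and Gm17639 lie in the same domain. Rtl1 (chr12:110827404-110838540, minus strand), a retrotransposon-derived gene of the Dlk1-Meg3 domain, has opposite it the microRNA genes Mir433, Mir127, Mir434, Mir431, Mir136 and Mir432, made from the strand that is known to be expressed from the maternal chromosome. It had 451 and 424 CPM in wild type and 198 and 193 in KO2 (-1.16 ± 0.10, adjusted p = 6.57e-10). In the same domain, Gm17639, opposite the maternally expressed long noncoding RNA Meg3, had 219 and 218 CPM against 147 and 134 (-0.64 ± 0.12, adjusted p = 0.000293). Both KO2 libraries lay below both wild type libraries at both genes, as they did in 28.8% of tested genes outside chromosome 11.

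Copg2, which overlaps the end of the paternally expressed gene Mest, had 936 and 931 CPM in wild type and 512 and 526 in KO2 (-0.85 ± 0.06, adjusted p = 6.02e-11). Mest as the counted gene, opposite Copg2, had 42.9 and 57.0 CPM against 55.3 and 87.4 and was not called (0.52 ± 0.21, adjusted p = 0.128). AF085738, opposite Gnas, the gene of the stimulatory G protein alpha subunit, had 4350 and 4325 CPM against 3725 and 3751 (-0.21 ± 0.05, adjusted p = 0.00171). The imprinted list holds 60 genes. By the counted gene, 1 of its 15 tested entries was higher and 2 lower, and by the gene opposite 0 of 11 were higher and 3 lower, with a median of -0.21 against -0.01 for all tested genes. Of all tested genes, 5.01% were higher and 3.97% lower. Copg2 counts in both tallies, since Copg2 and Mest are both on the list. The entry that was higher is Grb10, described with chromosome 11.

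Xist and Gm20417, at 2 long noncoding RNA loci, had lower counts and were named after their values were seen. Outside chromosome 11, lincRNA genes were called both ways, 23 higher and 46 lower of 438 tested. Of all genes tested there, 2.88% were higher and 4.43% lower. A gene lies opposite 371 of the 438, and 10.8% of all tested genes with a gene opposite were called there. Xist, the RNA that coats the inactive X chromosome, lies opposite its repressor Tsix, and its counts, read as fragments of Tsix, were 344 and 312 CPM in wild type and 193 and 192 in KO2 (-0.77 ± 0.10, adjusted p = 1.15e-06). Gm20417, inside the abundant nuclear RNA Malat1, had 2961 and 2904 CPM against 1872 and 1898 (-0.64 ± 0.06, adjusted p = 2.26e-09). KO2 was below wild type in every library at both, as in 28.8% of tested genes outside chromosome 11. Malat1 as the counted gene held 22 and 22 counts in wild type and 11 and 13 in KO2.

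**Figure D2:**
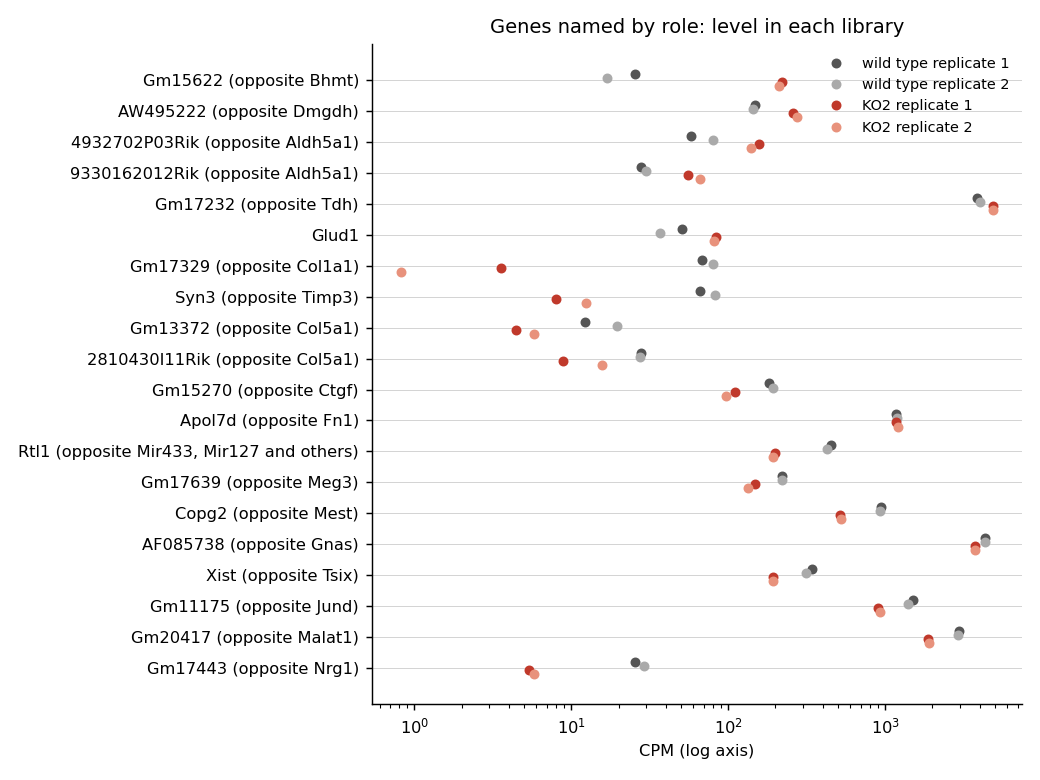
CPM (log axis) of 20 counted genes in each of the 4 libraries, 1 row per gene with the gene opposite it in brackets; grey points are wild type and red points KO2. From the top, the first 6 genes, at loci of amino acid metabolism and with 3 of them named after their values were seen, are higher in KO2, followed by genes opposite matrix genes, of which Apol7d opposite Fn1 overlaps between groups, and by genes at imprinted, noncoding, AP-1 and growth factor loci that are lower in KO2.

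Among genes of signalling and the immediate-early response, changes went both ways. Gm11175 lies within Jund, an AP-1 transcription factor gene, and had 1508 and 1393 CPM in wild type and 895 and 933 in KO2 (-0.67 ± 0.06, adjusted p = 1.44e-09). Gm17443, opposite the growth factor gene Nrg1, had 25.4 and 28.9 CPM against 5.35 and 5.77 (-2.26 ± 0.38, adjusted p = 8.91e-05). Gm15401, opposite Tcf7l1, a transcription factor that represses Wnt targets, had 410 and 367 CPM against 247 and 228 (-0.71 ± 0.10, adjusted p = 3.3e-06) and was named after its values were seen. No library of 1 group overlapped the other at these 3 genes. Both KO2 libraries lay below both wild type libraries in 28.8% of tested genes outside chromosome 11. For Gm17443 this was a condition of its choice. Counts at 2 other Wnt pathway genes, Axin2 and Notum, were higher and lie on chromosome 11. Of 12 tested entries of the Wnt and growth factor list by the gene opposite, 3 were higher and 2 lower, with a median of -0.13. Of 13 entries taken by the counted gene, 2 were higher and 1 lower. Of all tested genes 5.01% were higher and 3.97% lower, and on chromosome 11 22% were higher. On that chromosome lie 2 of the 3 higher entries by the gene opposite and both by the counted gene, and outside it 1 of 9 and 0 of 8 were higher. In the immediate-early list, 1 of 5 entries was lower by the counted gene and 1 of 3 by the gene opposite, both at the Jund locus. Jund as the counted gene was at -0.84 ± 0.26 (adjusted p = 0.0428) and lost its call whichever library was left out (adjusted p from 0.0922 to 0.202) and with DESeq2 (0.316).

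Calls at markers of the ES cell state are given beside the 8.98% of all tested genes that were called. At their counts an uncalled gene is not shown to be unchanged. For markers with no gene opposite, it cannot be told whether the counts are fragments of the marker's own transcript. By the counted gene, 0 of 15 general and 0 of 11 naive pluripotency genes were called by edgeR or DESeq2, with 1 of each at an unadjusted p under 0.05 and medians of -0.01 and -0.03. By the gene opposite, 2 of 3 general entries were lower, where 3.97% of all tested genes were lower. Gm13061 at Lin28a, an RNA-binding protein that blocks let-7 maturation, had 451 and 428 CPM in wild type and 372 and 307 in KO2 (-0.38 ± 0.09, adjusted p = 0.00518). Without KO2 replicate 2 this call was lost (log2 fold change -0.23, adjusted p = 0.213). Gm14261 at Sall4, a pluripotency transcription factor, had 510 and 456 CPM against 408 and 402 (-0.25 ± 0.08, adjusted p = 0.0415) and lost its call without KO2 replicate 1 (adjusted p = 0.135), KO2 replicate 2 (0.178) or wild type replicate 1 (0.413). Summed over 8 ES cell markers, the counted genes held 344 and 306 counts in wild type and 339 in each KO2 library. Of the 4 endoderm markers, 2 were at 0 in all libraries and the others held at most 1 count per library in all. With own-symbol counts this low in general, that does not show that endoderm cells were absent.

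The list of nervous system genes gave calls in both directions. By the counted gene, 3 of 7 entries of the list were lower, namely Syn3, Nkx6-3 and Nefm. Of 5 entries by the gene opposite, 3 were lower and 1 higher, where 3.97% of all tested genes were lower and 5.01% higher. Nefm, a neurofilament gene opposite Nefl, counts in both tallies (-0.64 ± 0.20, adjusted p = 0.0458), and its call was lost without KO2 replicate 1 (adjusted p = 0.411), wild type replicate 1 (0.15) or wild type replicate 2 (0.116). Gm7628, opposite the semaphorin receptor gene Plxnb1, had 23.6 and 24.6 CPM in wild type and 4.46 and 8.24 in KO2 (-1.89 ± 0.39, adjusted p = 0.00155). Nkx6-3, a homeobox gene, had 29.8 and 25.5 CPM against 3.57 and 12.4 (-1.75 ± 0.40, adjusted p = 0.00422), a call lost without KO2 replicate 1 (adjusted p = 0.0738). In the other direction, E130003G02Rik, opposite the glutamate receptor gene Grin1, had 67.4 and 67.2 CPM against 160 and 148 (1.2 ± 0.14, adjusted p = 2.93e-07). Syn3 counts toward this list by its own symbol and toward the matrix list by the gene opposite. Basp1, a neuronal growth-associated gene in none of the lists, had 215 and 201 CPM against 89.1 and 84.9 (-1.26 ± 0.13, adjusted p = 1.21e-08). Nefm, E130003G02Rik and Basp1 were named after their values were seen. Nkx6-3 and Basp1 have no gene opposite, so which strand was read there is not known.

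Calls at genes of chromatin pathways are given beside the 8.98% of all tested genes that were called. Of 30 genes of H3K36 methylation, 0 of 10 tested entries were called by the counted gene with edgeR or DESeq2 (3 at an unadjusted p under 0.05), and edgeR called 1 of 6 by the gene opposite. That entry was Plin4, which shares 6 exon bases with the reader gene Hdgfrp2. It was lower by -0.73 ± 0.20 (adjusted p = 0.0167) and lost its call in 3 of 4 fits that left out a library, with adjusted p up to 0.131. Of the genes of H3K27 acetylation and Mediator, 0 of 23 counted entries were called by edgeR or DESeq2 (5 at an unadjusted p under 0.05). By the gene opposite, 1 of 11 was called, 4632419I22Rik at Med13 on chromosome 11 (0.56 ± 0.08, adjusted p = 4.37e-06). With the shift of that chromosome taken out, it was at 0.11 ± 0.08 (adjusted p = 0.479). Rbbp4, the histone chaperone shared by HDAC1 and Polycomb complexes, had 38.5 and 39.1 CPM in wild type and 65.1 and 84.9 in KO2 (0.95 ± 0.20, adjusted p = 0.00149), and by strand these counts belong to Gm17525 and Sync opposite it. Gm17525, where fragments of Rbbp4 itself would be counted, was not called (0.02 ± 0.06, adjusted p = 0.904). Kdm1a, the H3K4 demethylase of the CoREST complex, had 37.6 and 40.8 CPM against 14.3 and 20.6 (-1.16 ± 0.29, adjusted p = 0.00784), a call lost without KO2 replicate 1 (adjusted p = 0.0791). No annotated gene lies opposite Kdm1a, so which strand was read there is not known.

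At Polycomb genes, 3 of 13 counted entries and 2 of 8 entries by the gene opposite were higher and 0 lower, where 5.01% of all tested genes were higher and 22% of those on chromosome 11. Outside that chromosome 2 of 10 and 1 of 6 were higher, and these 3 entries are L3mbtl2 and Chadl, given below, and Rbbp4. The counted entry on it, E130012A19Rik, was at 0.47 ± 0.12 (adjusted p = 0.0131, and 0.216 without KO2 replicate 1), and at 0.02 after the shift of the chromosome was taken out (adjusted p = 0.958). Gm16706, inside Suz12, a core subunit of Polycomb repressive complex 2, had 1278 and 1197 CPM in wild type and 2156 and 2305 in KO2 (0.85 ± 0.05, adjusted p = 1.54e-12). Suz12 lies on chromosome 11, and with the shift of that chromosome taken out the change was 0.39 ± 0.05 (adjusted p = 1.1e-05). Gm17629, opposite the catalytic subunit gene Ezh2 on chromosome 6, was not called (-0.15 ± 0.06, adjusted p = 0.143). L3mbtl2, an atypical Polycomb gene, and Chadl lie opposite each other, so that fragments of each are counted at the other, and both were higher, by 1.62 ± 0.40 (adjusted p = 0.00711) and 0.16 ± 0.05 (adjusted p = 0.0465). L3mbtl2 lost its call without wild type replicate 1 (adjusted p = 0.0789), and Chadl kept it in 1 of 4 fits that left out a library (adjusted p up to 0.28).

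Genes of cell death and glucose use were called in both directions, where 5.01% of all tested genes were higher and 3.97% lower. Of the apoptosis list, 1 of 13 counted entries was higher (Casp9) and 1 lower (Bax), and 2 of 9 entries by the gene opposite were higher (Cela2a and Ggnbp1). Of the glycolysis and glucose transport list, 1 of 17 counted entries was higher (Tpi1), and of 6 entries by the gene opposite 1 was higher (Csnk1d) and 1 lower (Gm15441). Casp9, the initiator caspase of the mitochondrial pathway, overlaps the end of the elastase gene Cela2a and had 2.62 and 1.70 CPM in wild type and 20.5 and 13.2 in KO2 (2.90 ± 0.58, adjusted p = 0.00104), and it stayed under an adjusted p of 0.05 whichever library was left out. Cela2a, where fragments of Casp9 itself would be counted, had 34.1 and 38.3 CPM against 57.0 and 59.4 (0.68 ± 0.20, adjusted p = 0.0295) and lost its call whichever library was left out (adjusted p from 0.0659 to 0.181). Bax, a pore-forming activator of the same pathway, had 28.9 and 24.6 CPM against 9.80 and 14.0 (-1.15 ± 0.32, adjusted p = 0.019). It lost its call without KO2 replicate 1 (log2 fold change -0.906) or wild type replicate 1 (-1.025). No annotated gene lies opposite Bax, so which strand was read there is not known. Ggnbp1, opposite Bak1, another activator of that pathway, rose by 0.21 ± 0.06 (adjusted p = 0.0197), a call lost without KO2 replicate 2 (adjusted p = 0.0939) or wild type replicate 1 (0.0516). Tpi1, the glycolytic triosephosphate isomerase gene, shares 34 exon bases with Spsb2 opposite it. Counts at Tpi1 rose by 1.74 ± 0.48 (adjusted p = 0.0193). The call was lost without KO2 replicate 2 (log2 fold change 1.62) or wild type replicate 1 (1.36). Spsb2, where fragments of Tpi1 itself would be counted, was not called (-0.11 ± 0.21, adjusted p = 0.83). Gm15441, opposite Txnip, the inhibitor of glucose uptake, had 886 and 869 CPM against 646 and 632 (-0.46 ± 0.06, adjusted p = 7.38e-06). Csnk1d, opposite the lactate exporter gene Slc16a3 on chromosome 11, rose by 0.81 ± 0.09 (adjusted p = 6.46e-08). Gm12868, opposite the glucose transporter gene Slc2a1, was not called (0.07 ± 0.07, adjusted p = 0.592). Of 59 ribosomal protein genes tested by their own symbol, 0 were called by edgeR or DESeq2 (3 at an unadjusted p under 0.05), and by the gene opposite 1 of 10, Tlcd1 at Rpl23a on chromosome 11.

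The mitochondrial chromosome, with 16 tested genes, had a median log2 fold change of 0.36 and 1 called gene. That gene, mt-Cytb, encodes cytochrome b and had 208 and 156 CPM in wild type and 278 and 229 in KO2 (0.47 ± 0.14, adjusted p = 0.0321). It lost its call without KO2 replicate 1 (adjusted p = 0.0903) or wild type replicate 2 (0.2).

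The 12 rises of the largest size outside chromosome 11 ran from log2 2.08 to 3.35 and the 12 falls from -1.84 to -2.84, among genes with at least 5 CPM in the higher group. They were mostly genes of few counts, and the highest library value among the rises was that of Gm15622 at 220 CPM. Of each 12, 5 stayed called whichever library was left out. Beside Gm15622 and Casp9, these rises included Gm16220, opposite Gm5134, and D10Bwg1379e, with no gene opposite. The summed counts of D10Bwg1379e were 3 over both wild type and 30 over both KO2 libraries, a ratio of 9.93 with an exact 95% interval of 3.09 to 50.9 that covers counting error only. The falls that stayed were Syn3, Gm17443 and Gm7628, given above, with Clca6, opposite Gm16233, and Mterfd2. Mterfd2, opposite the matrix gene Sned1, had 20.1 and 23.0 CPM against 4.46 and 4.95 (-2.17 ± 0.40, adjusted p = 0.000397). Mt1, the metal-binding metallothionein 1, has no gene opposite. Mt1 had 4.38 and 2.55 CPM in wild type and 14.3 and 15.7 in KO2 (2.08 ± 0.51, adjusted p = 0.00663), a call lost without wild type replicate 2 (log2 fold change 1.77).

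The other 13 of these 24 genes lost their call when at least 1 library was left out. Among the rises they were Acrbp, Gm17556, Gm10684 (opposite Amica1), Mknk2, Rprd1b (opposite Tgm2) and Gpr89 (opposite Pdzk1 and Gja5). Among the falls they were Pcdhb17, Fez2 (opposite Crim1), Pllp, Prkcz, Taf6l, Gm15726 (opposite Mid1) and Fancf (opposite Gas2). Those without brackets have no gene opposite. Without a library their highest adjusted p ranged from 0.0794 for Prkcz, an atypical protein kinase C, to 0.407 for Gpr89. Both KO2 libraries of each lay beyond both wild type libraries, a condition of their choice.

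Among the most abundant genes, changes that were called were small. The 5 called rises of the highest level outside chromosome 11 had log2 changes of 0.16 to 0.34 and the 5 falls of -0.20 to -0.24, and all 10 have a gene opposite. Gm17588, opposite the endoribonuclease-like gene Nynrin, had 2286 and 2391 CPM in wild type and 2837 and 3086 in KO2 (0.34 ± 0.05, adjusted p = 1.79e-05). Tmem55b, opposite the base excision repair gene Apex1, had 4214 and 4304 CPM against 3534 and 3675 (-0.24 ± 0.05, adjusted p = 0.000463). Gm17403 and Map3k12, both opposite the RNA-binding protein gene Pcbp2, had log2 changes of -0.21 ± 0.05 (adjusted p = 0.00282) and -0.20 ± 0.04 (adjusted p = 0.00186). Map3k12 had an adjusted p of 0.0559 without KO2 replicate 1. Prpf39 (opposite Fkbp3), Chadl (opposite L3mbtl2), Sla2 (opposite 1110008F13Rik) and Gm17675 (opposite Zfp106) also lost their call when at least 1 library was left out. The differences of the 10 genes were larger than the spread between the 2 libraries of a group, and groups that did not overlap were a condition of their choice. The rise at Gm17588, the greatest of the 10, was 1.27-fold.

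Some called genes lie next to each other. Dqx1, Tlx2 and Gm20423 are neighbours on chromosome 6 with no gene opposite, between 83007838 and 83026110, and were named after their values were seen. Gm20423 had 76.1 and 91.0 CPM in wild type and 210 and 211 in KO2 (1.33 ± 0.13, adjusted p = 1.37e-08). Dqx1, a helicase-like gene, had 27.1 and 31.5 CPM against 61.5 and 66.8 (1.13 ± 0.22, adjusted p = 0.000865). Tlx2, a homeobox gene of neural crest derivatives, had 7.88 and 14.4 CPM against 37.4 and 26.4 (1.49 ± 0.33, adjusted p = 0.0026), with an adjusted p of 0.0658 without wild type replicate 1. At another locus, Gm16567, inside the complement protease gene C1s, had 29.8 and 33.2 CPM against 116 and 113 (1.86 ± 0.18, adjusted p = 7.4e-09), also named after its values were seen. All KO2 libraries lay above all wild type libraries at these 4 genes, as in 20.2% of tested genes outside chromosome 11.

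Where both genes of an overlapping pair were tested outside chromosome 11 (699 pairs), both were called in 8 and 1 of the 2 in 129. In 7 of the 8 pairs both moved the same way. Dtx3l and Parp9, partners in ADP-ribosylation that share a start region, were both higher. By strand, the counts at each are read as fragments of the other. Counts at Dtx3l rose from 28.9 and 15.3 CPM to 73.1 and 66.0 (1.65 ± 0.24, adjusted p = 1.16e-05). Parp9 rose by 0.52 ± 0.14 (adjusted p = 0.0189) and lost its call without KO2 replicate 2 (adjusted p = 0.116), wild type replicate 1 (0.052) or wild type replicate 2 (0.0988). The pair whose counts moved in opposite directions was the adhesion receptor gene Lphn1 (0.83 ± 0.20, adjusted p = 0.00695) and Gm10644 (-0.17 ± 0.05, adjusted p = 0.0415). By strand, the first value is read as Gm10644 and the second as Lphn1. Gm10644 lost its call whichever library was left out, with adjusted p from 0.108 to 0.361, and Lphn1 without KO2 replicate 1 (0.0941) or wild type replicate 1 (0.0615).

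The share of genes called was also taken by whether a gene lies opposite. Outside chromosome 11, 258 of 2387 tested genes with a gene opposite were called (10.8%), against 69 of 2087 without (3.31%). Their levels differ, at a median of 46.8 against 12.4 CPM. Within 3 equal groups of the tested genes by mean CPM, the shares were 4.39% against 1.67% in the low group, 7.19% against 3.12% in the middle group and 14.9% against 12.4% in the high group. Levels still differed within the high group, at a median of 149 against 63.4 CPM. Called genes without a gene opposite were split into 50 lower and 19 higher, and those with one into 148 and 110. On chromosome 11, 34.7% of genes with a gene opposite were called and 7.14% of the others.

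**Figure D3:**
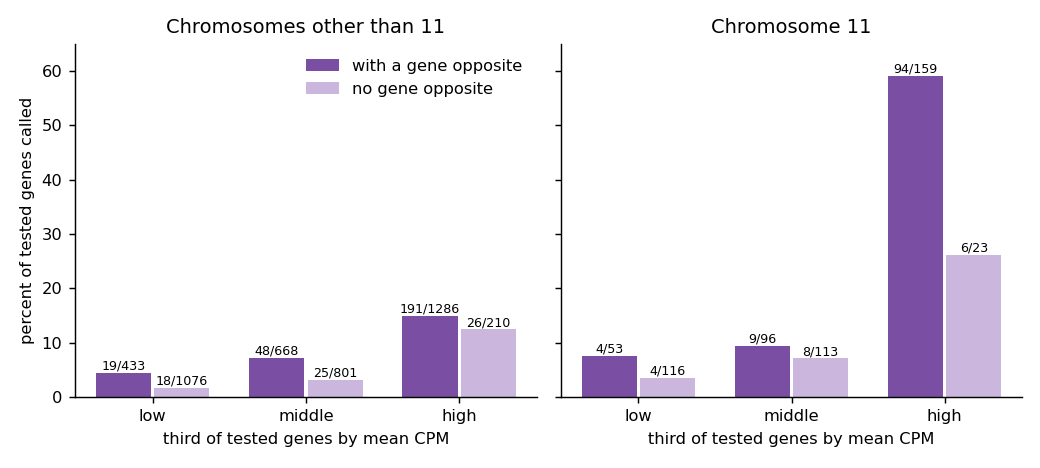
Percent of tested genes called at an adjusted p under 0.05 (vertical axis) in 3 equal groups by mean CPM (low, middle and high), for genes with an annotated exon on the other strand (dark bars) and without one (light bars), with called and tested numbers above each bar. Outside chromosome 11 the bars rise from 4.39% and 1.67% in the low group to 14.9% and 12.4% in the high group, and on chromosome 11 the dark bar of the high group reaches 59.1%.

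On chromosome 11 the whole distribution was shifted. The median log2 fold change of its 560 tested genes was 0.40, with quartiles of 0.15 and 0.65, and 83.8% of them were above 0, against 43.4% of genes elsewhere. Both KO2 libraries lay above both wild type libraries in 60% of its tested genes, against 20.2% elsewhere. The median lay 0.46 above that of the other chromosomes on the log2 scale, or 1.37-fold. Chromosome 11 held 11.5% and 11.4% of the counts apart from AY036118 in the wild type libraries and 15.0% and 15.2% in the KO2 libraries. The 19 other nuclear chromosomes tested had medians from -0.13 (X) to 0.03 (chromosome 13).

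**Figure D4:**
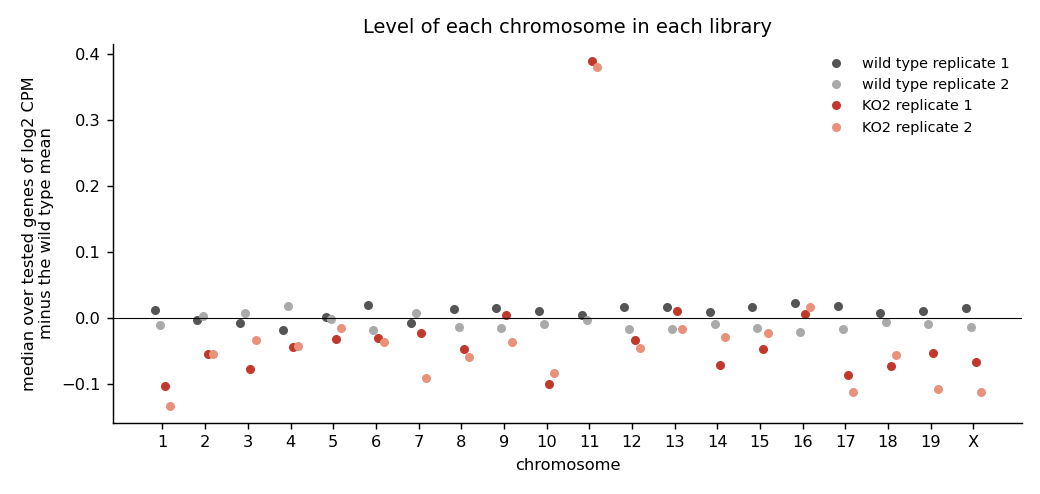
Median over the tested genes of each chromosome (horizontal axis) of log2 CPM minus the mean of the 2 wild type libraries (vertical axis), with 1 point per library. The KO2 points of chromosome 11 lie at 0.39 and 0.38, while the KO2 points of all other chromosomes drawn lie between -0.13 and 0.02; the 2 wild type points of a chromosome mirror each other because their mean is subtracted.

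The shift ran along the chromosome. In 10 windows of 10 Mb, each with at least 20 tested genes, the medians ranged from 0.32 to 0.52. It was present in both KO2 libraries, at 0.39 and 0.38 relative to the wild type mean. Most of the calls were of about this size, since 94 of the 123 higher genes had a log2 change under 1 and their median was 0.65. The 2 replicates of KO2 come from 1 line, so they do not say whether the shift belongs to the genotype, and chromosome number was not measured here.

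**Figure D5:**
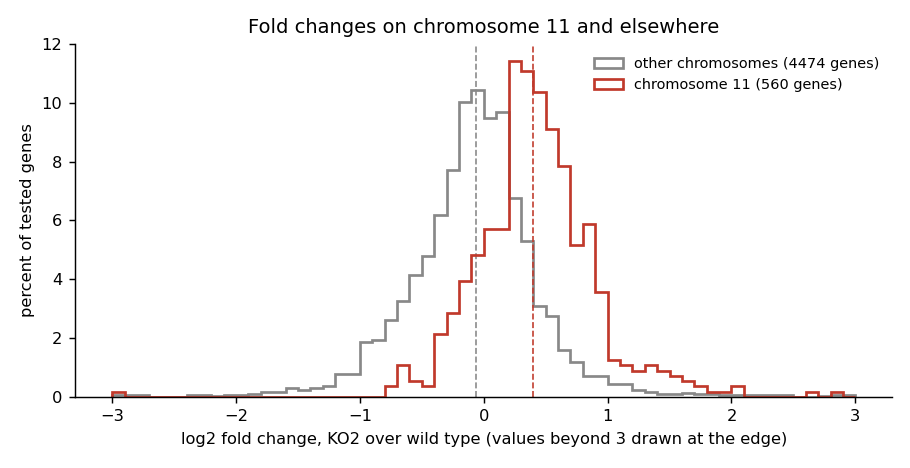
Distribution of log2 fold changes of KO2 over wild type (horizontal axis, bins of 0.1) as percent of tested genes (vertical axis) for 560 genes of chromosome 11 (red) and 4474 genes elsewhere (grey), with dashed lines at the medians of 0.40 and -0.06. The red outline lies to the right of the grey one.

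Of the 5 most abundant genes that rose on chromosome 11, 3 did so by about the size of the shift. Tlcd1, opposite Rpl23a, had 11730 and 10750 CPM in wild type and 15760 and 15260 in KO2 (0.46 ± 0.04, adjusted p = 5.48e-09). Gm11583, opposite the nuclear import receptor gene Kpnb1, had 3406 and 3134 CPM against 4300 and 4695 (0.46 ± 0.05, adjusted p = 6.46e-08). Fam57a, opposite Glod4 and the SMN complex gene Gemin4, had 2571 and 2626 CPM against 3832 and 3815 (0.56 ± 0.05, adjusted p = 6.27e-10). In each, both KO2 libraries lay above both wild type libraries, a condition of their choice that 60% of the chromosome's tested genes met. Agxt2l2, opposite the RNA-binding protein gene Hnrnpab, rose by 0.21 ± 0.04 (adjusted p = 0.00165), less than the chromosome's median. Mfsd11, opposite the splicing factor gene Srsf2, rose by 0.14 ± 0.04 (adjusted p = 0.0449) and lost its call whichever library was left out (adjusted p from 0.0509 to 0.125).

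To find genes that departed from the shift, the shift was taken out of the KO2 libraries as an offset, which centred chromosome 11 on the median of the other chromosomes, and the genes were tested again. Of the 560 genes, 24 were then higher (4.29%) and 23 lower (4.11%), beside 2.88% and 4.43% outside the chromosome. All 24 were among the 123 higher calls, 4 of those calls became lower and 95 were no longer called. Of the 23 lower genes, 17 had not been called before centring. Without wild type replicate 1, 14 genes were lower.

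Grb10, an imprinted adaptor that restrains insulin and growth factor receptor signalling, with no gene opposite, stood above the shift. It had 15.8 and 22.1 CPM in wild type and 67.7 and 82.4 in KO2 (1.98 ± 0.25, adjusted p = 1.27e-06), and 1.53 ± 0.26 after centring (adjusted p = 0.000172). Gm16033, opposite Adam19, was at 1.08 ± 0.10 after centring (adjusted p = 4.52e-09). Gm11532, opposite the transcription factor gene Sp6, rose by 1.43 ± 0.09 before and 0.98 ± 0.09 after centring (adjusted p = 1.54e-12 and 1.17e-08). These 3 genes moved by at least 2 times the shift of their chromosome on the log2 scale.

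Counts opposite 2 Wnt pathway genes stood above the shift. Gm11670, opposite Axin2, a feedback inhibitor and widely used Wnt target, stood at 1.05 ± 0.07 before and 0.59 ± 0.07 after centring (adjusted p = 1.54e-12 and 3.54e-07). 4732444A12Rik, opposite Notum, which inactivates Wnt ligands, was at 0.81 ± 0.07 before and 0.35 ± 0.07 after (adjusted p = 1.41e-09 and 0.00191). A locus where the strands differed pairs Acadvl, of mitochondrial fatty acid oxidation, with Dvl2, a Wnt signal transducer. Dvl2 as the counted gene, opposite Acadvl, had 149 and 130 CPM in wild type and 345 and 311 in KO2 (1.23 ± 0.11, adjusted p = 1.11e-09), and 0.78 ± 0.11 after centring. Acadvl as the counted gene, opposite Dvl2, was lower after centring (-0.61 ± 0.10, adjusted p = 0.00018), and before it was at -0.15 ± 0.10 (adjusted p = 0.406). By strand, the first value is read as Acadvl and the second as Dvl2. Except for Grb10 and Dvl2, the genes of this and the preceding paragraph were named after their values were seen.

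Below the shift lay Gm17329 at Col1a1 (-5.49 ± 0.37 after centring, adjusted p = 1.14e-11) and Amz2, opposite the transporter gene Slc16a6. Amz2 had 61.2 and 83.3 CPM in wild type and 40.1 and 51.9 in KO2, -0.65 ± 0.21 before centring (adjusted p = 0.0468) and -1.10 ± 0.21 after (adjusted p = 0.000696). Before centring its call was lost without KO2 replicate 1 (adjusted p = 0.28), without wild type replicate 2 (0.467) and with DESeq2 (0.278). 1700064E03Rik, opposite the H3K27 demethylase gene Kdm6b, was at -0.15 ± 0.10 before (adjusted p = 0.364) and -0.61 ± 0.10 after (adjusted p = 5.9e-05), and was named after its values were seen. Its level was thus nearly that of wild type, on a chromosome where the median gene was 1.37-fold higher.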

How the data were processed

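The authors deposited unnormalized counts per gene in a table for each library. Paired fragments had been counted over GENCODE version 1 exons on mm9 by featureCounts 2.0.1 with the strand option at 1, per the file headers. STAR 2.5.4b, Trim Galore 0.6.4 and featureCounts 2.0.0 were among the tools named, per the submitters' processing notes. No source used here says whether the library kit marks strand. Totals were 1203554 and 1237783 in wild type and 1150089 and 1285487 in KO2, and the other 44 samples were not analysed here.

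In R 4.3.3 with edgeR 4.0.16, genes were filtered with filterByExpr (minimum count 10), scaled by TMM and fitted by a robust quasi-likelihood model over all 6 RNA libraries, with KO1, a second line, sharing the estimate of spread. This left 3 residual degrees of freedom and a common biological coefficient of variation of 4.46%. Calls had a Benjamini-Hochberg adjusted p under 0.05 over all 5034 tested genes. Errors are standard errors of the fit, n = 2 libraries a group. CPM is scaled to the effective library size. Genes opposite share at least 1 exon base on the other strand in GENCODE version 1. For centring, the median shift of chromosome 11 entered the KO2 libraries as an offset. Replicates of a group differed beyond sampling noise (chi-square per degree of freedom 1.39 in wild type and 1.54 in KO2). Steps were tested on simulated counts.

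Named genes were, among calls with at least 5 CPM and groups that did not overlap, the 12 largest and 5 most abundant each way outside chromosome 11, the 8 largest and 5 most abundant rises and up to 5 largest falls on it, the NSD and HDAC genes, and up to 4 called members of each of 21 gene lists, 81 in all. A further 38 genes were named once their values had been seen. Some genes that the rule took are not reported here. The members, lists and rule were chosen with earlier results of these data known. Alternatives were 4 libraries only, DESeq2 1.42.0, RLE scaling, TMM without chromosome 11, no AY036118, other filters, a test against a log2 change of 0.5, a replicate block, each library left out, and a 50-base overlap.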

Additional observations from a re-analysis of the deposited data

How the results depend on the processing

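Outside chromosome 11, 129 genes were higher and 198 lower. DESeq2 gave 42 and 51 (2440 tested genes had no adjusted p there), and a test against a log2 change of 0.5 gave 18 and 18. On chromosome 11, with 123 higher and 2 lower, DESeq2 gave 76 and 1 and the test against 0.5 gave 22 and 1. The fits with 4 libraries, RLE scaling and TMM without chromosome 11 also gave 1 lower gene there. Replicate numbers did not pair the samples (correlation of same-numbered deviations between wild type and KO2 of -0.01). With the replicate block the counts were 118 higher and 182 lower outside chromosome 11 and 115 and 1 on it. With single libraries left out, the counts ranged from 91 to 103 higher and from 121 to 138 lower outside chromosome 11, and from 98 to 104 higher and 1 to 2 lower on it. The fall to 121 came without KO2 replicate 1, and without wild type replicate 1 it was 122. The genes lower on chromosome 11 after centring numbered 23, and 14 to 21 with single libraries left out, with 14 without wild type replicate 1; the higher ones numbered 17 to 22. The chromosome 11 shift, 0.46, was 0.44 with 4 libraries and 0.35 with no filter, where 18594 genes were tested, and ranged from 0.46 to 0.49 with single libraries left out. Of 103 called genes that the rule took or that were added later, 55 stayed called whichever library was left out, 52 were also called by DESeq2 (34 had no adjusted p), 88 with 4 libraries, 96 with the block and 34 against 0.5. None of these 103 changed direction. Of those not called, Hdac1 changed sign without KO2 replicate 1 (0.14) and without wild type replicate 2 (0.17), with a range of -0.53 to 0.17. Nsd1 did without KO2 replicate 1 (-0.17) and wild type replicate 1 (-0.04), with a range of -0.17 to 0.29, and Apol7d without KO2 replicate 2, with a range of -0.0059 to 0.056. Gm12868 did without wild type replicate 1 (-0.015 to 0.19), Gm2301 without wild type replicate 1 (-0.12 to 0.037), and Gm17525 without KO2 replicate 2 or wild type replicate 2 (-0.059 to 0.13). Genes under the minimum count in an alternative gave no value there. The causes of these differences were not tested.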

Other observations

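Markers of early lineages were scarce among the tested genes. By the counted gene, 2 endoderm, 3 formative and primed, 4 streak and mesoderm, 3 trophoblast and 5 germline and 2-cell-like genes were tested, and edgeR and DESeq2 called 0 of each. Of all tested genes edgeR called 8.98%, so 0 calls among so few entries do not show that these genes were unchanged. At an unadjusted p under 0.05, 1 of the streak and mesoderm genes passed and 0 of the others. By the gene opposite, 0 of 3 naive pluripotency entries, 0 of 2 streak and mesoderm entries, 0 of 1 trophoblast and 0 of 1 germline entry were called by either tool, with 1, 1, 0 and 0 at an unadjusted p under 0.05. Gm2301, opposite Tbx3, a transcription factor of the naive state, had a log2 fold change of -0.06 ± 0.07 (edgeR adjusted p = 0.716), and D130058E05Rik, opposite the naive state gene Gbx2, had 0.28 ± 0.09 (adjusted p = 0.0551).

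Among 37 class I histone deacetylase complex genes, 1 of 19 tested counted entries was higher (Rbbp4) and 1 lower (Kdm1a), where 5.01% of all tested genes were higher and 3.97% lower. By the gene opposite, 1 of 8 was higher, Pigl at the corepressor gene Ncor1 on chromosome 11 (0.65 ± 0.19, adjusted p = 0.029), and it lost its call without KO2 replicate 2 (adjusted p = 0.427) or wild type replicate 2 (0.134). 2700012I20Rik, which shares 8 exon bases with the scaffold gene Sin3a, was not called (-0.62 ± 0.31, adjusted p = 0.246).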
